A study of Oreochromis niloticus with 6 samples.

Results

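The small RNAs described here run splicing, RNA cleavage and transcription control in every cell. They are the major spliceosomal RNAs U1, U2, U4, U5 and U6, the RNA 7SK, the RNA subunits of RNase P and RNase MRP, the nucleolar RNA U3, and the signal recognition particle RNA. They were found by their Rfam family names (RF00003, RF00004, RF00015, RF00020, RF00026, RF00100, RF00009, RF00030, RF00012 and RF00017) in the authors' table of annotated transcripts. That search gave 58 transcripts, called copies here, out of 33245 in the table, of which 426 carry any Rfam name. The copies belong to 9 of the 10 families. No transcript carried the family name of the signal recognition particle RNA, so only the proteins of that particle were analysed. The single U4 copy (MSTRG.8701) was listed at 0 in every library, which leaves 8 families with values.

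The tissue was liver of wild-type juvenile male Nile tilapia (Oreochromis niloticus) of the GIFT line, a farmed fish selected for growth. A high-fat diet (HFD) with 18.5% lipid was compared with a normal-fat diet (NFD) with 8% lipid, each fed to satiation for 56 days in recirculating tanks, with 3 libraries per diet. Per the labels' protocols, ribosomal RNA was removed from total RNA, and RNA of several samples of a diet was mixed before the libraries were made. The protocols do not tell whether the 3 libraries of a diet came from separate mixtures, so p-values here cover the spread between libraries, and part or all of that spread may be technical.

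In the spliceosome, U1 pairs with the start of an intron and U2 with its branch point, while U4, U5 and U6 arrive as one particle in which U4 holds U6 inactive until the catalytic core forms. 7SK sits outside splicing: it holds the elongation kinase P-TEFb in an inactive store. RNase P trims the leader from transfer RNA precursors, RNase MRP is a related enzyme that cuts ribosomal RNA precursors, and U3 guides the first cuts that free the small-subunit ribosomal RNA.

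By listed FPKM the families fell into an abundant group and a scarce group. Levels are in FPKM, fragments scaled to transcript length and to the library, summed over the copies of a family. By mean FPKM the order was 7SK, U2, RNase P RNA, RNase MRP RNA, U3, U5, U6 and U1. The widest step was from U3 to U5: U3 was higher in 6 of 6 libraries, by 5.14 ± 0.63 (SD, n = 6) on the log2 scale, and their ranges over the 6 libraries did not overlap. The ranges of all other neighbours overlapped. Within libraries U5 exceeded U6 in 6 of 6, by 2.12 ± 0.60 (SD, n = 6; lowest 1.09), and RNase P RNA exceeded RNase MRP RNA in 6 of 6, by 0.23 ± 0.24, whereas 7SK exceeded U2 in 4 of 6, RNase MRP RNA exceeded U3 in 3 of 6 and U6 exceeded U1 in 4 of 6. The 7SK copy ranked 1 among all 33245 transcripts by mean FPKM, the leading U2 copy 2, RNase P RNA 5, RNase MRP RNA 6 and U3 7. The leading copies of U5, U1 and U6 ranked 165, 627 and 750. The U RNAs of 1 spliceosome are thus listed at levels that span from a mean of 6973 FPKM in HFD for U2 to 30.5 for U6 and 23.9 for U1. These are length-scaled values of short RNAs, in which the sharing of reads among copies is unknown. Whether their order follows the amounts of the RNAs in the tissue was not tested.

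**Figure D1:**
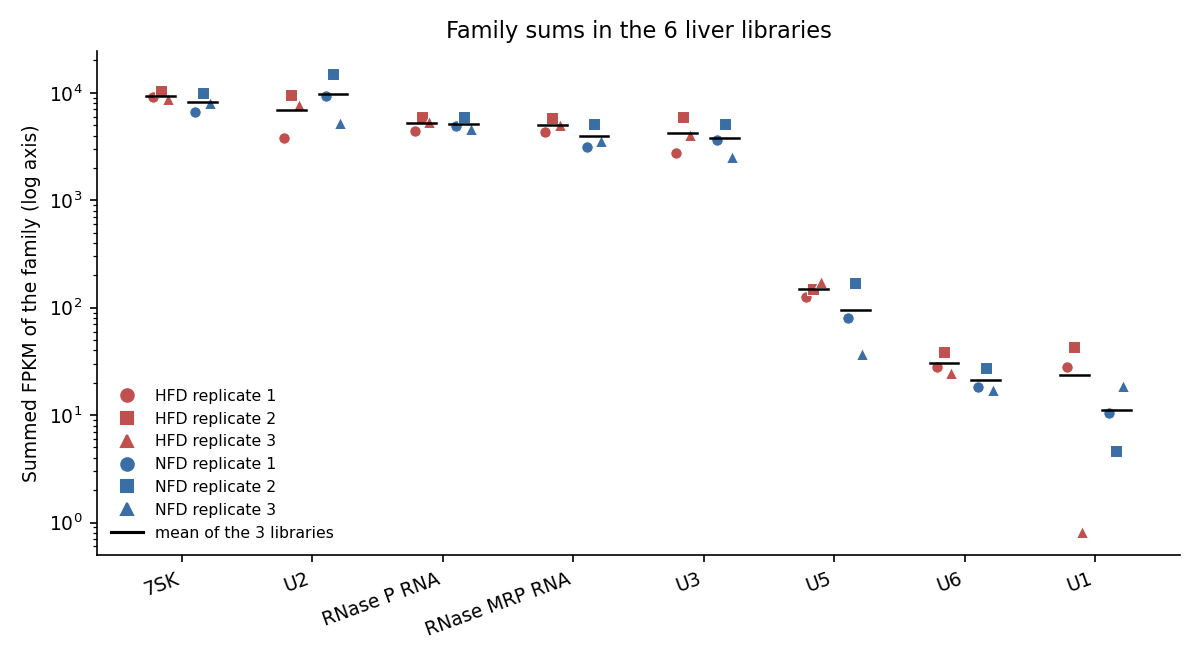
Summed FPKM of each family (log axis) in the 6 libraries, red for HFD and blue for NFD, with a marker shape for each replicate number and a black bar at the mean of 3 libraries. The 5 abundant families lie at 2541 FPKM or more in every library, and U5, U6 and U1 at 172 FPKM or less.

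U2, which recognises the branch point, was at 3802, 9474 and 7641 FPKM in the HFD libraries and at 9293, 15084 and 5186 in the NFD libraries. NFD replicate 2 was the highest and HFD replicate 1 the lowest, and the diets overlapped. The means were 6973 ± 2895 and 9855 ± 4973 FPKM (SD, n = 3 each). In limma the difference, HFD minus NFD on the log2(FPKM + 0.5) scale used for every such value, was -0.47 ± 0.53 (SE; 95% interval -1.74 to 0.81; adjusted p = 0.934). Fewer cells of a type and less RNA per cell cannot be told apart in these bulk libraries.

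The 8 U2 copies were far from equal. One copy, MSTRG.16054, held 74.3% of the family on average, at 2450, 7307 and 6016 FPKM in HFD and 6262, 11651 and 3805 in NFD. The second, MSTRG.17489, was at 513, 545 and 875 FPKM in HFD and 1425, 1996 and 853 in NFD. Its NFD libraries were the higher ones apart from NFD replicate 3, which lay just under HFD replicate 3. In the limma fit of single transcripts this copy differed by -1.10 ± 0.40 (SE; unadjusted p = 0.0321), which did not pass after adjustment over all transcripts (adjusted p = 0.807). The third, MSTRG.16037, was at 438, 1373 and 676 FPKM in HFD and 945, 1288 and 473 in NFD, with no separation of the diets.

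One further U2 copy was highest in replicate 1 of both diets. MSTRG.16058 was at 387 FPKM in HFD replicate 1 and 619 in NFD replicate 1, and between 22.3 and 68.3 in the other 4 libraries. It is named, like the next, because of that pattern, after its values were seen. MSTRG.42797 was at 1.80, 1.5 and 2.28 FPKM in HFD replicate 1, HFD replicate 3 and NFD replicate 2 and was listed at 0 in the other 3. The U5 copy MSTRG.16068 was above 0 in the same 3 libraries, at 5.72, 5.39 and 5.69 FPKM, and listed at 0 in the others. Copies of one family can be near-identical, so how the authors' counting shared reads among them is uncertain for every single-copy value. A family sum is untouched by a shift of reads between its own copies only where these have equal length. Reads shared with loci that have no row are not covered by the sum.

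Most of the listed U2 signal was assigned to copies with nearby gene numbers. The locus that the reads came from is uncertain, because near-identical copies can share reads. The 4 copies with gene numbers from MSTRG.16037 to MSTRG.16058 held between 83.1% and 92.4% of the U2 sum in each library. In the NCBI gene table of the assembly O_niloticus_UMD_NMBU, the interval between med17 and ints4 lists 11 small nuclear RNA genes among 30 genes. By gene number MSTRG.16042, MSTRG.16054 and MSTRG.16058 fall between those genes, and MSTRG.16037 lies just beyond ints4 (MSTRG.16039). By its gene number the copy MSTRG.17489 lies between gtf2h5 and tmem181, where that table lists 2 small nuclear RNA genes. ints4 encodes a subunit of the Integrator complex, which cuts the 3′ ends of spliceosomal RNA precursors.

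U1, which recognises the 5′ splice site, was the scarcest family by mean FPKM and the least even. Its sum was 28.0, 42.8 and 0.821 FPKM in HFD and 10.5, 4.61 and 18.6 in NFD. HFD replicate 3 was the lowest of all and HFD replicate 2 the highest, so the HFD values enclosed all NFD values. The difference was 0.20 ± 1.35 (SE; 95% interval -3.07 to 3.47; limma adjusted p = 0.996). By mean FPKM 1 copy, MSTRG.28633, held 88.3% of the sum: 26.5, 41.5 and 0 FPKM in HFD and 7.41, 0.269 and 17.3 in NFD. Its share was 0% in HFD replicate 3 and 5.84% in NFD replicate 2. The second U1 copy, MSTRG.31448, did not share the pattern of MSTRG.28633, and held 91.1% of the sum in NFD replicate 2. It was at 0.852, 1.17 and 0.349 FPKM in HFD and 2.97, 4.20 and 1.24 in NFD, and every NFD library was above every HFD library. Its difference was -1.30 ± 0.44 (SE; unadjusted p = 0.024, limma adjusted p = 0.770), so it did not pass. The sum without the leading copy differed by -0.88, opposite in sign to the full sum and not past the threshold (limma adjusted p = 0.869). The third copy by level, ENSONIG00000022039, averaged 0.144 FPKM.

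U5 and U6 belong to the particle that builds the catalytic core. U5, which holds the exons in line, was at 127, 149 and 172 FPKM in HFD and 79.5, 169 and 36.9 in NFD. NFD replicate 2 lay among the HFD libraries and the other 2 NFD libraries lay below them. The means were 149 ± 22.6 and 95.1 ± 67.4 FPKM (SD, n = 3 each), a difference of 0.90 ± 0.54 (SE; 95% interval -0.41 to 2.21; limma adjusted p = 0.908). The copy MSTRG.22631 held 91.3% of U5, at 115, 136 and 155 FPKM in HFD and 76.5, 152 and 34.3 in NFD. The next copies, MSTRG.9840 and MSTRG.5857, averaged 3.67 and 3.04 FPKM and were lowest in NFD replicates 1 and 3, as the sum was.

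U6, the RNA at the centre of catalysis, was at 28.2, 38.3 and 24.9 FPKM in HFD and 18.3, 27.5 and 17.3 in NFD. NFD replicate 2 lay between HFD replicates 3 and 1, and the diets otherwise separated. The means were 30.5 ± 6.98 and 21.0 ± 5.66 FPKM (SD, n = 3 each), with a difference of 0.53 ± 0.27 (SE; 95% interval -0.13 to 1.2; unadjusted p = 0.0976, limma adjusted p = 0.891). U6 had the most copies, 20, of which 6 were listed at 0 everywhere. Its leading copy MSTRG.233 was at 14.6, 20.7 and 12.6 FPKM in HFD and 10.5, 11.9 and 5.47 in NFD, without overlap, and differed by 0.79 ± 0.35 (SE; limma adjusted p = 0.834). MSTRG.43037 was at 10.9, 13.9 and 8.83 FPKM in HFD and 5.69, 9.99 and 7.93 in NFD, with 1 NFD library above the lowest HFD library. MSTRG.3642, the next by level, averaged 1.34 FPKM, and its difference of -0.28 ± 0.28 (SE) had the opposite sign. It lies in a run of 4 U6 copies (MSTRG.3640 to MSTRG.3643) numbered just before SMYD1 (MSTRG.3644); the NCBI table lists 4 small nuclear RNA genes within the 5 genes after smyd1a. One low copy, MSTRG.33736, shares its gene ID with herc1, so its reads may not all be U6.

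**Figure D2:**
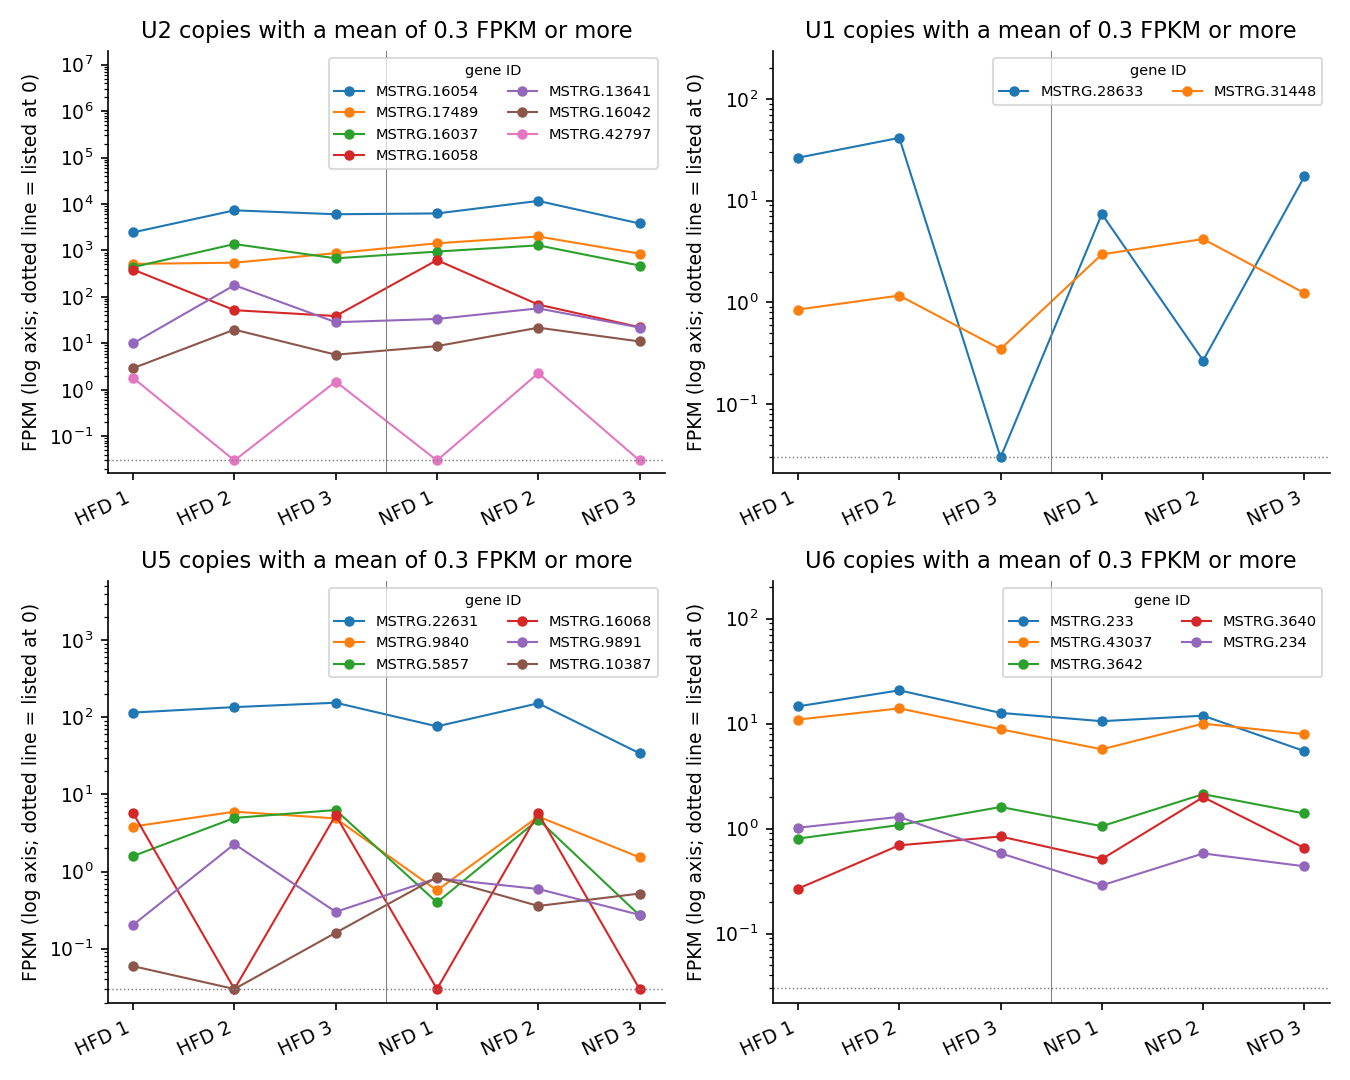
FPKM (log axis) of the U2, U1, U5 and U6 copies with a mean of 0.3 FPKM or more across the 6 libraries, with 1 line per gene ID and points on the dotted line listed at 0. U2 MSTRG.16058 peaks in replicate 1 of both diets, and U2 MSTRG.42797 and U5 MSTRG.16068 fall to 0 in the same 3 libraries.

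7SK, the RNA scaffold of the P-TEFb store, came from 1 copy (MSTRG.5051); 2 further copies were listed at 0 throughout. It was at 9209, 10364 and 8707 FPKM in HFD and 6675, 9873 and 7988 in NFD. NFD replicate 2 lay among the HFD libraries, and the other NFD libraries lay below them. The means were 9427 ± 850 and 8179 ± 1607 FPKM (SD, n = 3 each), and the difference was 0.22 ± 0.27 (SE; 95% interval -0.42 to 0.86; limma adjusted p = 0.945).

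RNase P RNA had the smallest diet difference of the 8 families, at 4404, 6001 and 5377 FPKM in HFD and 4930, 5992 and 4610 in NFD. Its difference of 0.02 ± 0.26 (SE; 95% interval -0.60 to 0.65; limma adjusted p = 0.999) changed sign when single libraries were left out. All but a trace came from MSTRG.9948; the other copy, ENSONIG00000022094, averaged 0.21 FPKM. RNase MRP RNA has 1 copy, MSTRG.9949, whose gene number follows directly. It was at 4337, 5826 and 5021 FPKM in HFD and 3148, 5149 and 3547 in NFD. Again NFD replicate 2 lay among the HFD libraries and the others below, and the difference was 0.38 ± 0.29 (SE; 95% interval -0.33 to 1.09; limma adjusted p = 0.919).

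U3 was at 2725, 5922 and 4068 FPKM in HFD and 3623, 5175 and 2541 in NFD. The diets overlapped, with replicate 2 the highest in each. The difference was 0.15 ± 0.41 (SE; 95% interval -0.84 to 1.15; limma adjusted p = 0.982), and it turned negative without HFD replicate 2 (-0.12) or without NFD replicate 3 (-0.10). MSTRG.17608 carried nearly all of it, while MSTRG.13902 and MSTRG.17611 averaged 1.40 and 0.111 FPKM, and 3 of the 8 copies were listed at 0 everywhere.

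No family differed between diets by the test. Of 9188 genes and families tested, 0 passed an adjusted p of 0.05 in limma (0%), and 551 (6.0%) had an unadjusted p under 0.05, none of them one of the 8 families. In 0 of 8 families did the diets fail to overlap, against 11.6% of all features. Of the 58 copies, 24 passed the level filter, and 0 of these passed the threshold, as for all 9361 transcripts (0%). An unadjusted p under 0.05 was found for 3 of the 24, U1 MSTRG.31448, U2 MSTRG.17489 and U6 MSTRG.234, against 6.04% of all transcripts. The diets did not overlap for 3 of the 24, U1 MSTRG.31448, U6 MSTRG.233 and U6 MSTRG.234, against 11.7% of transcripts. U6 MSTRG.234 averaged only 0.70 FPKM, near the level filter. Its HFD replicate 3 and NFD replicate 2 nearly met, at 0.582 and 0.579 FPKM. By sign alone, 16 copies were higher and 8 lower in HFD, where 50.7% of transcripts were higher and 49.3% lower. All 5 tested U5 copies had a positive sign, and 5 of the 7 tested U2 copies a negative one. The U5 copies below the level filter had lower means in HFD. MSTRG.10387 averaged 0.073 FPKM in HFD and 0.574 in NFD, and ENSONIG00000021676 and ENSONIG00000021801 were at 0 in every HFD library. Copies of a family may share reads, so their signs are not independent.

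**Figure D3:**
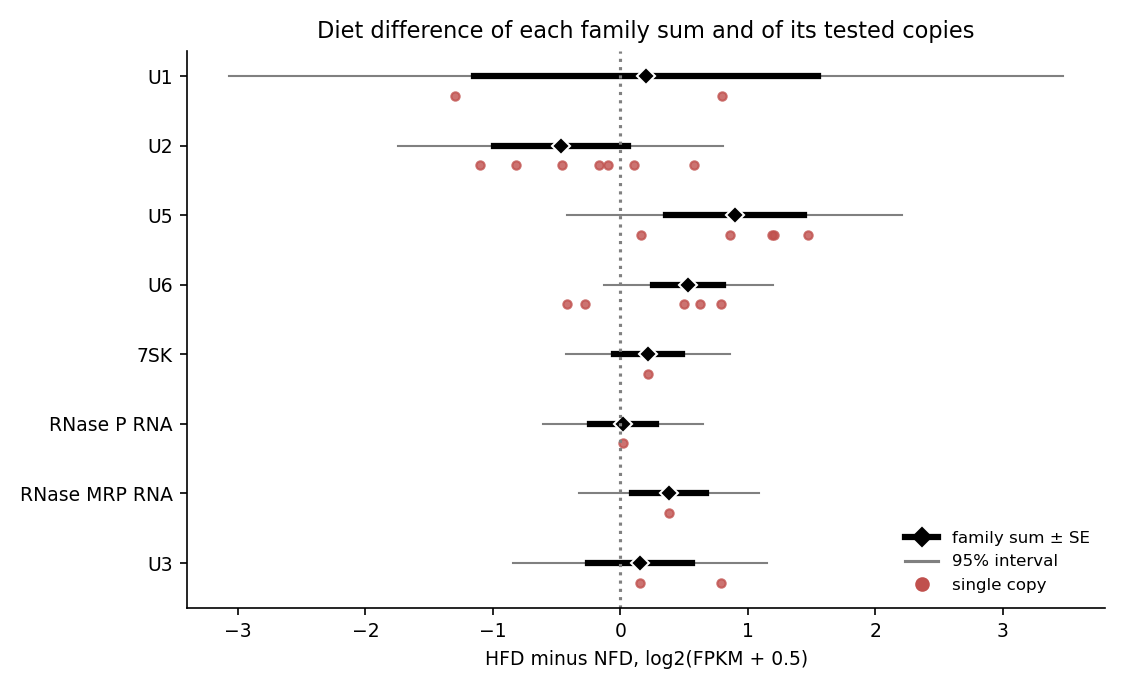
Diet difference (HFD minus NFD, log2(FPKM + 0.5)) of each family sum with its SE (thick line) and 95% interval (thin line), and of its tested copies (red points). All 8 intervals include 0, and U1 has the widest, from -3.07 to 3.47.

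Dividing 1 family by another within a library removes whatever scales both alike. Of the 28 ratios among 8 families, 5 did not overlap between diets (17.9%). The share among the levels of all genes and families was 11.6%, which is not a share of ratios. Ratios of other features were not computed. RNase P RNA to RNase MRP RNA was 1.02, 1.03 and 1.07 in HFD and 1.57, 1.16 and 1.3 in NFD, with means of 1.04 ± 0.029 and 1.34 ± 0.205 (SD, n = 3 each). The HFD libraries lay close together at nearly equal levels of both RNAs, and every NFD ratio was above every HFD ratio. U2 to U5 was 30.0, 63.5 and 44.4 in HFD and 117, 89.3 and 141 in NFD, the widest of the 5 gaps, at -1.37 on the log2 scale. U2 to U3 averaged 1.62 ± 0.243 with HFD and 2.51 ± 0.44 with NFD (SD, n = 3 each). The remaining pairs had U6 below the line: 7SK to U6 averaged 315 ± 40.5 and 396 ± 58.2, and RNase P RNA to U6 averaged 176 ± 34.3 and 252 ± 29.4. In both, HFD replicate 3 and NFD replicate 2 nearly met, at 349 and 359 for 7SK to U6 and 216 and 218 for RNase P RNA to U6. Each of the 5 ratios had an exact two-sided permutation p of 0.1, the smallest that 3 against 3 allows, and 0.56 after Benjamini-Hochberg adjustment over 28 ratios. This design cannot reach 0.05 for a single ratio. The ratios share families, and they were added after the values had been seen.

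**Figure D4:**
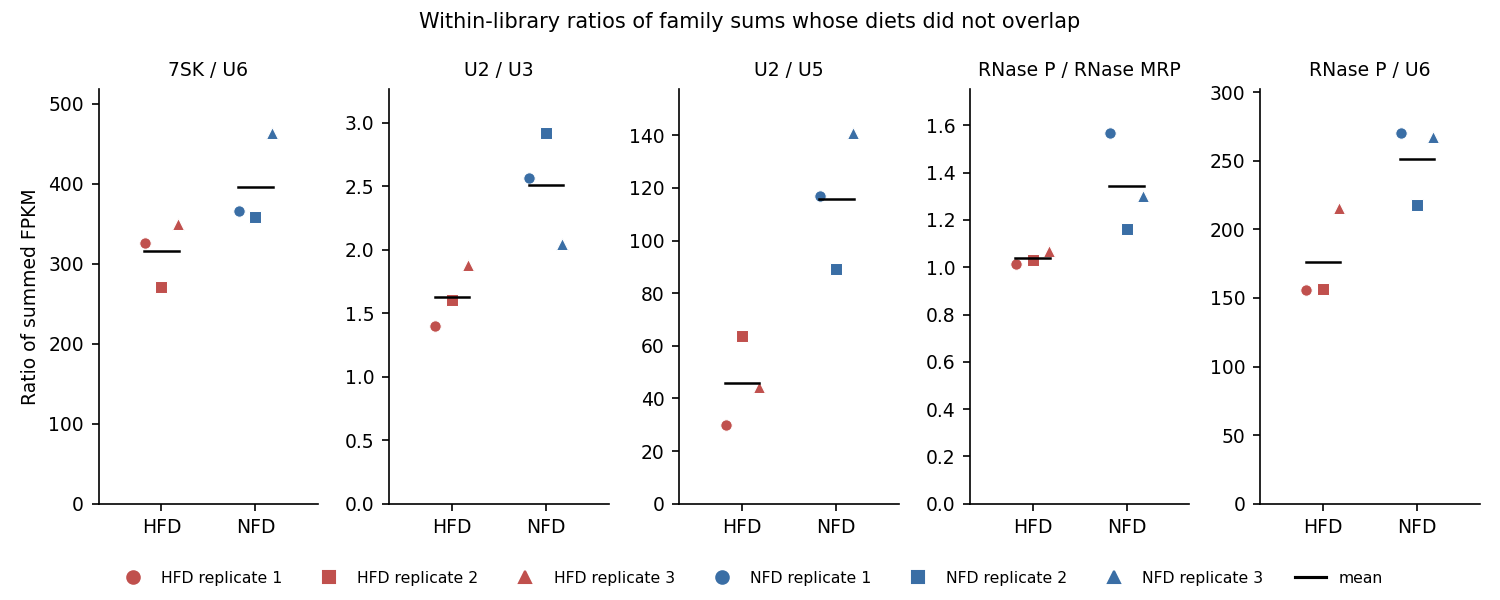
The 5 ratios of family sums whose diets did not overlap, each on its own axis from 0, with 1 point per library and a black bar at the mean of 3 libraries. All 5 are lower in HFD; for RNase P to RNase MRP the HFD points lie between 1.02 and 1.07 and the NFD points between 1.16 and 1.57.

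Some libraries were high or low across most families, and the high ones came from both diets. HFD replicate 2 had the highest value in 6 of the 8 families, and NFD replicate 2 was in the top 2 in 6. NFD replicate 3 was in the bottom 2 in 7, NFD replicate 1 in 4 and HFD replicate 1 in 3. The families together made up 17.5%, 26.4% and 18.2% of the table's summed FPKM in HFD and 17.2%, 24.5% and 16.8% in NFD. Both replicates numbered 2 stood above the other 4 libraries, and the diet means of 20.7% ± 4.95 and 19.5% ± 4.35 (SD, n = 3 each) differed by 1.16 percentage points (exact two-sided permutation p = 0.5, smallest possible 0.1). That difference ranged from -1.69 without HFD replicate 2 to 3.67 without NFD replicate 2. It was 0.07 percentage points with the long non-coding transcripts included in the total, and 0.07 without the 7SK copy. The other Rfam RNAs moved alongside, at 5301 FPKM in NFD replicate 2 and 4758 in HFD replicate 2 against 3166 to 4111 in the others; the part of small-RNA content in the family levels was not tested.

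The labelled tissue was checked by markers. Of 16 liver markers 11 were found, on 12 gene IDs, and none of these was at 0 throughout. Some were low: C3 was listed at 0 in HFD replicates 2 and 3 and NFD replicate 3, and apoba was at 0.241 to 1.39 FPKM. The sum of the liver markers was 1860 to 2867 FPKM in HFD and 2988 to 6715 in NFD. That gap rested largely on the fibrinogen gene fgb, at 3857 and 3101 FPKM in NFD replicates 1 and 3 and near 1 in the others. Transcripts of exocrine pancreas were found for 7 of 13 markers and led by the trypsin gene prss1. They summed to 4222 to 16190 FPKM in HFD and 3600 to 15320 in NFD. Their sum was above that of the liver markers in every library but NFD replicate 3, where it was 3600 against 5621 FPKM. It was highest in HFD replicate 3 and NFD replicate 1. The part of these transcripts in the family levels was not tested beyond leaving libraries out. Without HFD replicate 3 and NFD replicate 1 no family passed the threshold either, and RNase P RNA changed sign to -0.03. The depth of the libraries is unknown, since the values analysed are FPKM.

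The transcripts most alike in pattern were found by the root mean square difference of centred log2 values over the 6 libraries, among 6860 named features. Nearest to U2 were the Rfam RNAs RF00563 (0.17), RF00377 (0.23) and RF01290 (0.25), against a spread of 0.64 in U2 itself. Nearest to U3 were NACC2 (0.13), RF00478 (0.13) and tpcn3 (0.15), and to U6 mapre2 (0.05), dhrs12 (0.07) and cxcr3.2 (0.10). Among those nearest to 7SK were sms (0.05) and sptlc1 (0.06). RNase P RNA was nearest to vtna (0.05), tor4aa (0.07) and bicd2 (0.07), RNase MRP RNA to rusc2 (0.07), vps45 (0.08) and atp13a2 (0.10), and U5 to usp37 (0.17), ddah2 (0.20) and eno1b (0.25). Nearest to U1 were slc7a3a (0.39), eif3d (0.74) and bco2l (0.94), against its own spread of 1.68. The sum of the families was nearest to eya3, myca and rasa3 (each 0.09). Some of these features are low, and the added 0.5 shrinks their changes on this scale. usp37 was at 0.001 to 2.68 FPKM and eno1b at 0 to 1.41, where U5 was at 36.9 to 172. rusc2 was at 0.217 to 0.748 FPKM and mapre2 at 0.301 to 1.14. Over 6 libraries such likeness is a description only.

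The genes of the proteins that bind, make or carry these RNAs were below the 5 abundant families, and some reached the levels of U1 and U6. Of 107 genes found in 11 lists, 82 passed the level filter, with means from 0.454 to 25.3 FPKM. The highest was nop56, whose gene ID also carries RF00432 and RF00568, and the next was srp19 at 17.9 FPKM. Of the 82 tested, 0 passed the threshold in limma (0% of all features). An unadjusted p under 0.05 in limma was found for 2 (2.44%, against 6.0% of all features). Both were lower, and 3.33% of all features were lower at that level. For 11 the diets did not overlap (13.4% against 11.6%). By sign 28 were higher and 54 lower in HFD, where 50.4% of all features were higher and 49.6% lower, and the median difference was -0.07. That split varied with scaling and single libraries. The lower ones were 46 of 83 after libraries were scaled to the same summed FPKM, and 51 of 82 after trimmed-mean centring of the libraries. They were 41 of 78 without NFD replicate 2 and 59 of 82 without NFD replicate 1. The share of all features that was lower is not given for these settings, so the counts cannot be set against it.

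Among the spliceosomal partners, all 3 tested Sm ring proteins, which encircle U1, U2, U4 and U5, had a negative sign, with snrpb at 4.66 ± 0.787 and 4.80 ± 0.958 FPKM and snrpd1 at 2.75 ± 0.018 and 3.03 ± 0.828 (SD, n = 3 each; in this and the next paragraph the HFD mean comes before the NFD mean). Those signs depended on the setting: 1 of 3 was higher after scaling to the same summed FPKM and without HFD replicate 2, and 2 of 3 were higher without NFD replicate 3 (median 0.045). Of the Lsm ring, which binds U6, 1 of 3 was higher, with lsm4 at 7.19 and 7.41 FPKM and lsm6 at 7.16 and 6.50. The U1 protein snrpc was at 3.55 ± 0.589 and 4.39 ± 0.895 FPKM, and snrpa was too low to test. Of the U2 proteins 2 of 9 were higher, with sf3a3 at 7.61 and 8.50 FPKM and sf3b6 at 3.88 and 3.87. The number higher was 4 of 9 at a pseudocount of 1 and 4 of 8 without NFD replicate 2. Of the tri-snRNP proteins 6 of 13 were higher; the core protein prpf8, whose gene ID also carries RF00428, was at 12.6 and 16.0 FPKM, and the helicase snrnp200 at 6.92 and 7.49. None of these passed the threshold.

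None of the genes that make and carry these RNAs, or of the other particle proteins in the lists, passed the threshold. Of 11 tested for transcription and 3′ processing 3 were higher, with the Integrator subunits ints9 at 2.67 and 2.84 FPKM and ints1 at 2.89 and 2.27. Of 13 for capping, export and assembly 3 were higher, with the cap-binding ncbp2 at 5.03 and 3.71 FPKM and the export adaptor phax at 2.37 and 2.36. The number higher was 7 of 13 after scaling to the same summed FPKM and 6 of 11 without NFD replicate 2. Counts of the other lists in this paragraph also changed between settings. For the 7SK particle 4 of 6 were higher. Its inhibitor hexim1 was at 4.58 ± 0.213 and 4.53 ± 1.82 FPKM. The cyclin CCNT2, a partner of the kinase in P-TEFb, was at 7.78, 4.63 and 4.43 FPKM in HFD and 2.35, 3.69 and 3.89 in NFD, without overlap, and differed by 0.66 ± 0.29 (SE; limma adjusted p = 0.839). The other tested cyclin genes of the list, ccnt2b and ccnt1, had the opposite sign, at -0.13 ± 0.28 and -0.22 ± 0.21 (SE). Of the RNase P and RNase MRP proteins, which the enzymes largely share, 3 of 8 were higher, with rpp40 at 3.02 and 3.79 FPKM and pop4 at 1.64 and 1.88. Of the U3 particle 6 of 9 were higher. Its most abundant members were nop56, at 22.4 and 28.3 FPKM and so among the 3 lower ones, whose gene ID also carries RF00432 and RF00568, and nop58 at 4.32 and 4.07.

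The signal recognition particle brings ribosomes to the endoplasmic reticulum. All 6 tested protein genes of its list had a negative sign, with a median of -0.50 against 0.003 for all features and 0 past the threshold. The 6 include srpra and srprb, subunits of its receptor rather than of the particle. The count was 5 of 6 after scaling to the same summed FPKM and without HFD replicate 2, NFD replicate 1 or NFD replicate 2, and 7 of 8 without the level filter. srp19 was at 15.8, 11.1 and 14.6 FPKM in HFD and 18.4, 28.4 and 19.3 in NFD. Every NFD library lay above every HFD library, and the difference was -0.64 ± 0.25 (SE; unadjusted p = 0.0432, limma adjusted p = 0.828). The receptor subunit srpra was at 14.1 ± 2.22 and 19.4 ± 4.78 FPKM (SD, n = 3 each), with overlap. The 2 of 6 members with an unadjusted p under 0.05 (3.33% of all features were lower at that level) were srp19 and srp14, the latter at 2.14 ± 0.819 and 4.06 ± 0.645 FPKM (-0.83 ± 0.28 SE; limma adjusted p = 0.763). With the replicate block 1 member had an unadjusted p under 0.05, and without HFD replicate 2 there were 0. The median was between -0.35 and -0.68 under the alternatives tried. srp9, the partner of srp14, was at 10.8 and 11 FPKM.

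**Figure D5:**
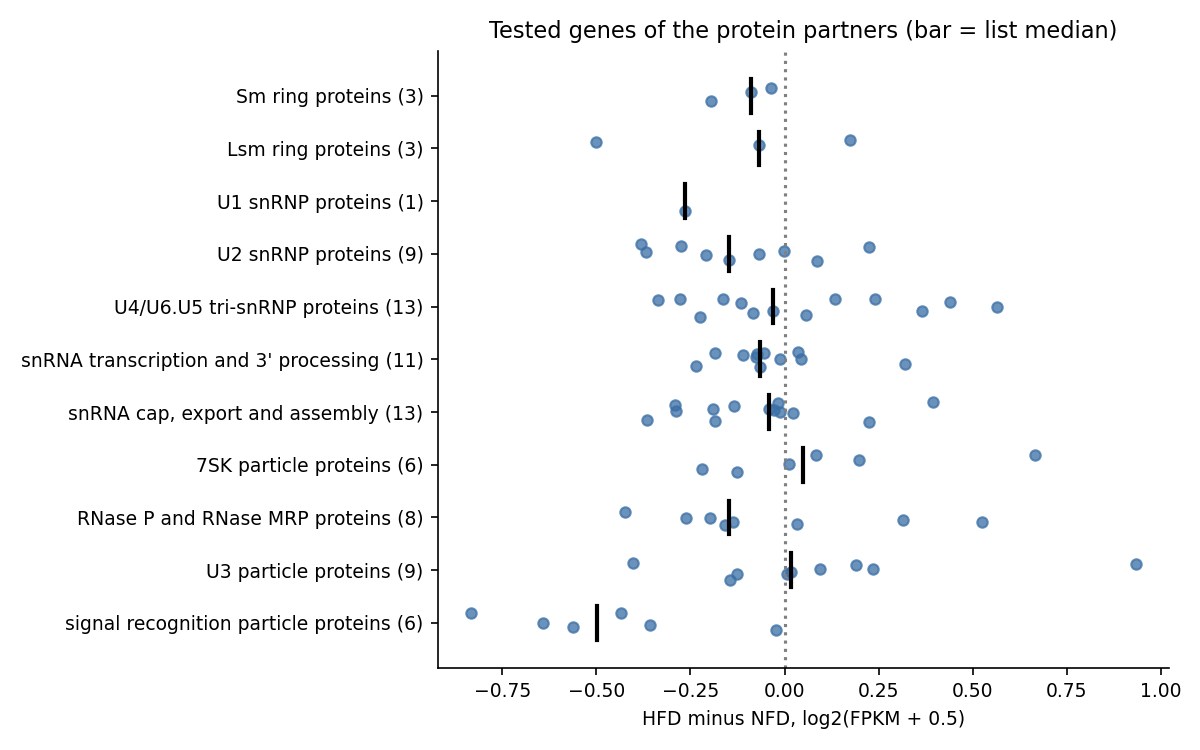
Diet difference (HFD minus NFD, log2(FPKM + 0.5)) of the tested protein genes in each list, with the number tested in parentheses, 1 point per gene and a bar at the list median. The signal recognition particle proteins, listed with the receptor subunits srpra and srprb, have the lowest median, -0.50, and no gene in any list passed the threshold.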

How the data were processed

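The authors' deposited tables hold FPKM per transcript, per the file headers; the table of annotated transcripts was analysed, and the long non-coding table served only as part of a total. Tools listed in the submitters' processing notes, without their roles, are StringTie 1.3.0, HISAT2 2.0.4, edgeR 3.22.3, FastQC 0.10.1 and cutadapt 1.10. For the build, and for how reads matching several copies were shared, nothing is given in the sources used here. A value of 0.0001 was taken as no estimate and set to 0. Low values did not come in whole read steps, so depth is unknown and no counting interval is given.

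Copies were summed per family and other transcripts per gene ID. Features with at least 0.5 FPKM in at least 3 of 6 libraries were tested with limma 3.58.1 in R 4.3.3 (lmFit, eBayes with a variance trend) on log2(FPKM + 0.5), diet as the only term, two-sided, with Benjamini-Hochberg adjustment over all features and a threshold of 0.05. That scale understates the change of low genes. Single transcripts were fitted the same way. The share and the ratios used exact permutation tests. The fit was also run on simulated data in which the spreads were shuffled among features. Because of that shuffle, it does not tell how many changes would be found here, and nothing is concluded from it.

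All families were named, with up to 3 copies per family and 2 members per list by highest mean FPKM, and 3 features by likeness, of which 1 is not reported here; other names were chosen after their values were seen. The members and lists were chosen with earlier results of these data known. The NCBI table (O_niloticus_UMD_NMBU) gave names and neighbours only. Alternatives tried were other pseudocounts, filters, scalings, no variance trend, a replicate block, other copy choices and leaving out libraries.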

Additional observations from a re-analysis of the deposited data

How the results depend on the processing

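No family and no copy passed the threshold under any alternative tried. Signs were less stable: of 149 alternative values for the families 12 changed sign, and of 239 for named copies 13. U1 became -0.88 without its top copy and -1.30 with only copies above 0 in all 6 libraries. Leaving out each library in turn gave U1 a range of -0.74 to 1.78, U2 -0.86 to -0.08, U5 0.35 to 1.44, U6 0.36 to 0.74, 7SK 0.08 to 0.36, RNase P RNA -0.080 to 0.14, RNase MRP RNA 0.23 to 0.59 and U3 -0.12 to 0.44 (log2). The cause was not tested. Without HFD replicate 3 and NFD replicate 1, an alternative chosen after seeing the data, U1 was 1.83 and its copy ENSONIT00000027373 was 3.18, while RNase P RNA and its copy ENSONIT00000027603 were both -0.03.

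For single copies the same range was -0.52 to 2.82 for U1 ENSONIT00000027373, -0.84 to 0.023 for U2 ENSONIT00000027578, -0.61 to 0.21 for U2 ENSONIT00000027117, -0.080 to 0.14 for RNase P RNA ENSONIT00000027603 and -0.12 to 0.44 for U3 ENSONIT00000026908. The share of the families ranged from -1.69 to 3.67 percentage points. Counts past the threshold ranged from 0 to 4 for genes and families and 0 to 4 for transcripts, with 4 of each without NFD replicate 2 and 1 transcript without HFD replicate 3; for liver markers the range was 0 to 1, with 1 without NFD replicate 2.

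Over all tested genes and families same-numbered libraries did not deviate together (r = -0.01, -0.20 and -0.10), so they were not taken as pairs, although replicate 2 of both diets was high in the share of the families and in U3. With the replicate block 0 families were called, and the adjusted p of U6 was 0.9997 with a difference of 0.53. Depth is unknown, and 3 libraries per diet leave wide intervals: the U2 interval runs from -1.74 to 0.81.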

Other observations

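The RNAs of the minor spliceosome, which removes a rare class of introns, were each at 7.11 FPKM or less in every library, below U2, U5 and U6 throughout. U1 was lower than U12 in HFD replicate 3 and in NFD replicate 2. U12 was at 2.21, 4.65 and 2.65 FPKM in HFD and 2.38, 7.11 and 3.6 in NFD, highest in replicate 2 of both diets. U4atac was between 0.344 and 2.38 FPKM and U6atac between 0.0804 and 0.132. U11 was at 3.49 FPKM in HFD replicate 3 and at 0.902 or less in the others.

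The vertebrate telomerase RNA, the template of chromosome-end synthesis, was at 132, 142 and 72.1 FPKM in HFD and 48.2, 82.6 and 516 in NFD; NFD replicate 3 stood far above the others and NFD replicate 1 was the lowest. The 170 copies of 5S ribosomal RNA summed to 1.37 to 2.58 FPKM and the 4 copies of 5.8S were listed at 0, in libraries from which ribosomal RNA had been removed.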
